A study of Mus musculus with 8 samples.

Results

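The genes described here are 36 immediate-early and heat-shock genes of the mouse, named one by one, of 31053 genes in the deposited matrix. Of these, 29 are grouped here as immediate-early genes and 7 encode heat-shock proteins. The 29 include Jund, which is steadily made, and Atf4, which is controlled largely at translation. All 36 were found in the matrix and in the GENCODE M21 annotation (mm10) as protein-coding genes. Immediate-early genes are transcribed within minutes of a growth factor, hormone, stretch or stress signal, from promoters already loaded with factors such as SRF and CREB, and their proteins, among them the AP-1 pair Fos and Jun, then switch on later genes. Heat-shock genes are switched on by HSF1 when proteins unfold, and their products, the HSP70, HSP90, HSP40 and small heat-shock families, refold or hold those proteins. In bone the same early genes also answer parathyroid hormone, and in many tissues they rise while cells are freed by enzymes, so that in a dissociated sample the 2 groups are read as a release response.

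Cells were released from the tibiae of mice that carried MMP14 F/+ and COL10A1cre together with the R26-tdT reporter and the Col1a1-2.3-GFP transgene, at P56 (8 weeks), with no treatment, and 3 mice were pooled. In these mice 1 Mmp14 allele is floxed, Cre is driven by Col10a1, a gene of hypertrophic chondrocytes (HCs), the Rosa26 tdTomato transcript carries a WPRE tail, and GFP is driven by a fragment of the Col1a1 promoter that is active in osteoblasts. The 8 labelled samples share 1 group and their barcodes carry no mark of sample or mouse, so that all cells form 1 sample without replicates, and intervals below cover counting error only. Bone and growth plate were digested with trypsin, whose fractions were discarded, and then with dispase and collagenase under shaking, and cells lysed without digestion were not analysed here, so that whether a level arose during release was not tested.

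Of 12564 barcodes, 4472 held at least 1600 genes, and 10 gates on raw marker UMIs (unique molecular identifiers, each 1 captured transcript) took 2781 of these. A gate is called by its rule. The Col2a1 gate (at least 10 Col2a1 UMIs and at most 1 of Prg4) held 243 cells, the Col10a1+Ihh gate (at least 5 together) 79, the Prg4+Cilp gate (at least 2 together, with at least 1 of Acan) 197, the Bglap gate (at least 20) 54, the Cxcl12 gate (at least 20, with at least 2 of Lepr and Adipoq together) 23, the Dcn+Col3a1 gate (at least 3 of each) 164 and the Cdh5 gate (at least 1) 89. The 3 blood gates were Ccr2 (at least 1; 843 cells), Cxcr2 (at least 1; 481 cells) and Cd79a (at least 3; 1066 cells). The gates overlapped: no cell was in the Col10a1+Ihh gate alone, 43 of its 79 cells were also in the Col2a1 gate, 25 of the 54 Bglap cells were also in the Col2a1 gate, and 81 Prg4+Cilp cells were also in the Dcn+Col3a1 gate. The 29 Bglap cells outside the Col2a1 gate held 556056 of the 1473785 UMIs of the Bglap gate. Chondrocyte markers summed to 46407 per 1000000 UMIs in the whole Bglap gate and to 5803 in these 29 cells. Bglap levels of single genes below are those of the whole gate and thus hold much RNA of Col2a1 cells. In the Cdh5 gate 47 of 89 cells (52.8%) held a UMI of Ptprc, the pan-leukocyte gene CD45, and neutrophil markers summed to 37596 CPM (UMIs per 1000000 UMIs of the gate) there, against 765 CPM in its 42 cells without Ptprc, so that the sums and levels are also given for its cells with and without Ptprc, while its ratios to other gates are those of the whole gate. A raw-count gate passes deep cells more easily: the median cell held 25759.5 UMIs in the Bglap gate and 7235 in the Cdh5 gate, and shares of cells are therefore given after each cell was thinned to 3000 UMIs. Every gated cell was deeper than that.

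Promoters of 29 of the 36 genes were found in the RefSeq table (GRCm38.p6). Those of Fosl1, Egr1, Egr3, Ier2, Myc, Hspa8 and Hsp90aa1 were not found there and were not searched. Elements further from the start, or with other letters than those searched, would be missed, so that no match does not mean no element. In the 250 bases before the start site, both strands were searched for the cAMP response element TGACGTCA, the CArG box of SRF, paired heat-shock half-sites (GAANNTTC or TTCNNGAA, which can overlap each other) and TATAAA. The cAMP element was found for Btg2, Dusp1 and Maff and in 1.55% of all 32851 promoters, and the CArG box for Egr2 and Zfp36 and in 1.47%. Heat-shock half-sites were found for 7 of the 29 genes (Hspa1a, Hspa1b, Hspb1, Hsph1, Jun, Egr2 and Fosl2) and in 12.8% of all promoters, and TATAAA for Fos, Gadd45b and Nr4a2 and in 12.4%. The windows below show 1 or 2 promoters for each kind of element, with the element in capitals, because the genes that carry them are followed in the values. They are written 5′ to 3′ on the strand of the gene, and none holds a base of an annotated exon. They lie at chr12:85473817-85473889 (plus strand) for Fos, chr10:67537454-67537543 (plus strand, inside an intron of a longer Egr2 model) for Egr2, chr17:26508568-26508655 (minus strand, inside an intron of a longer Dusp1 model) for Dusp1, chr1:134079274-134079361 (minus strand) for Btg2, chr17:34972213-34972300 (minus strand) for Hspa1a and chr5:135887762-135887869 (plus strand) for Hspb1. A match describes letters only and is not evidence of binding.
Fos, TATAAA: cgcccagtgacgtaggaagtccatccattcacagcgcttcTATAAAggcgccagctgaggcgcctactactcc
Egr2, CArG box: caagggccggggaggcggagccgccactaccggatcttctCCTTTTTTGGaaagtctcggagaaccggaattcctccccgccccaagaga
Dusp1, cAMP element: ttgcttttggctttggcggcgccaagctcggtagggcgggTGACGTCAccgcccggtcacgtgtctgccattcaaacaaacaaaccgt
Btg2, cAMP element: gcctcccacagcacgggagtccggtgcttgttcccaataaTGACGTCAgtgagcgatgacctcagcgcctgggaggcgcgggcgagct
Hspa1a, heat-shock half-sites: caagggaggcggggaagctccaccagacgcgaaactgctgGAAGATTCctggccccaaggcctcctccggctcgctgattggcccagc
Hspb1, heat-shock half-sites: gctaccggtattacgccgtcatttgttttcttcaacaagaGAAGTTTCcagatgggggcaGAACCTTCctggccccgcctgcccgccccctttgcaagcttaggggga
The window of Hspa1b (chr17:34959295-34959382, minus strand) has the same letters as that of Hspa1a, and 3 differences separate the 250 bases before the 2 starts. Their transcripts differ at 9 positions over the first 2000 bases and at 264 over the last 500, so that reads of the pair can be told apart mainly near the 3′ end.

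The immediate-early genes were high in every non-blood gate and in the Ccr2 gate, and low in the Cxcr2 and Cd79a gates, although Cxcr2 barcodes under the gene floor held 11082 CPM of them. Summed over the 29 genes, the level was 15566 CPM (15463 to 15669) in the Col2a1 gate, 15481 CPM (15308 to 15655) in the Col10a1+Ihh gate and 13771 CPM (13634 to 13909.9) in the Prg4+Cilp gate. It was 12871 CPM in the Cxcl12 gate, 11899 in the Dcn+Col3a1 gate, 11792 in the Bglap gate and 11559 CPM (11333 to 11788) in the Cdh5 gate. The Ccr2 gate, of monocytes and their kin, stood beside these at 11337 CPM (11272 to 11402). The Cxcr2 gate, of neutrophils, held 5216 CPM (5160.4 to 5272) and the Cd79a gate, of B-lineage cells, 4552 CPM (4514 to 4590.1). The counting intervals of the Col2a1 and Col10a1+Ihh gates overlapped, as did those of the Bglap and Dcn+Col3a1 gates, and the interval of the Cdh5 gate overlapped those of the Bglap, Dcn+Col3a1 and Ccr2 gates. Within the Cdh5 gate, cells without Ptprc held 14645 CPM and cells with it 9159 CPM. The 29 Bglap cells outside the Col2a1 gate held 11044 CPM. These sums weigh deep cells most, and the level of the median cell had another order. It was 14127 CPM in the Col2a1 gate, 13190 in the Col10a1+Ihh gate, 12693 in the Ccr2 gate and 12681 in the Prg4+Cilp gate. The median cell of the Bglap, Dcn+Col3a1, Cxcl12 and Cdh5 gates stood at 10406, 9998, 9768 and 7451 CPM, and that of the Cxcr2 and Cd79a gates at 3639 and 3501 CPM.

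The 7 heat-shock genes together varied much less. Their sum was highest in the Cdh5 gate at 2753 CPM (2644 to 2866), and 3919 CPM in its cells without Ptprc against 1846 CPM in those with it. It was 2450.1 CPM in the Cxcl12 gate, 2377 in the Ccr2 gate, 2305 in the Col2a1 gate, 2215 in the Col10a1+Ihh gate, 2148 in the Cd79a gate, 2053 in the Dcn+Col3a1 gate, 1995 in the Prg4+Cilp gate and 1989 in the Bglap gate. The Cxcr2 gate alone was lower, at 1349 CPM (1321 to 1378). By the median cell the Cdh5 gate stood at 1772 CPM, below every other non-blood gate and the Ccr2 gate (1936). The Cxcl12, Col2a1, Bglap, Dcn+Col3a1, Prg4+Cilp and Col10a1+Ihh gates stood at 2325, 2049.9, 1902, 1864, 1844 and 1807 CPM. In the Cdh5 gate the median was 3142 CPM without and 1325 CPM with Ptprc. The Cd79a and Cxcr2 gates stood at 1621 and 884 CPM. Hspa8, the HSC70 chaperone that cells make at all times, gave between 36.5% (Col10a1+Ihh) and 64.8% (Ccr2) of these UMIs.

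**Figure D1:**
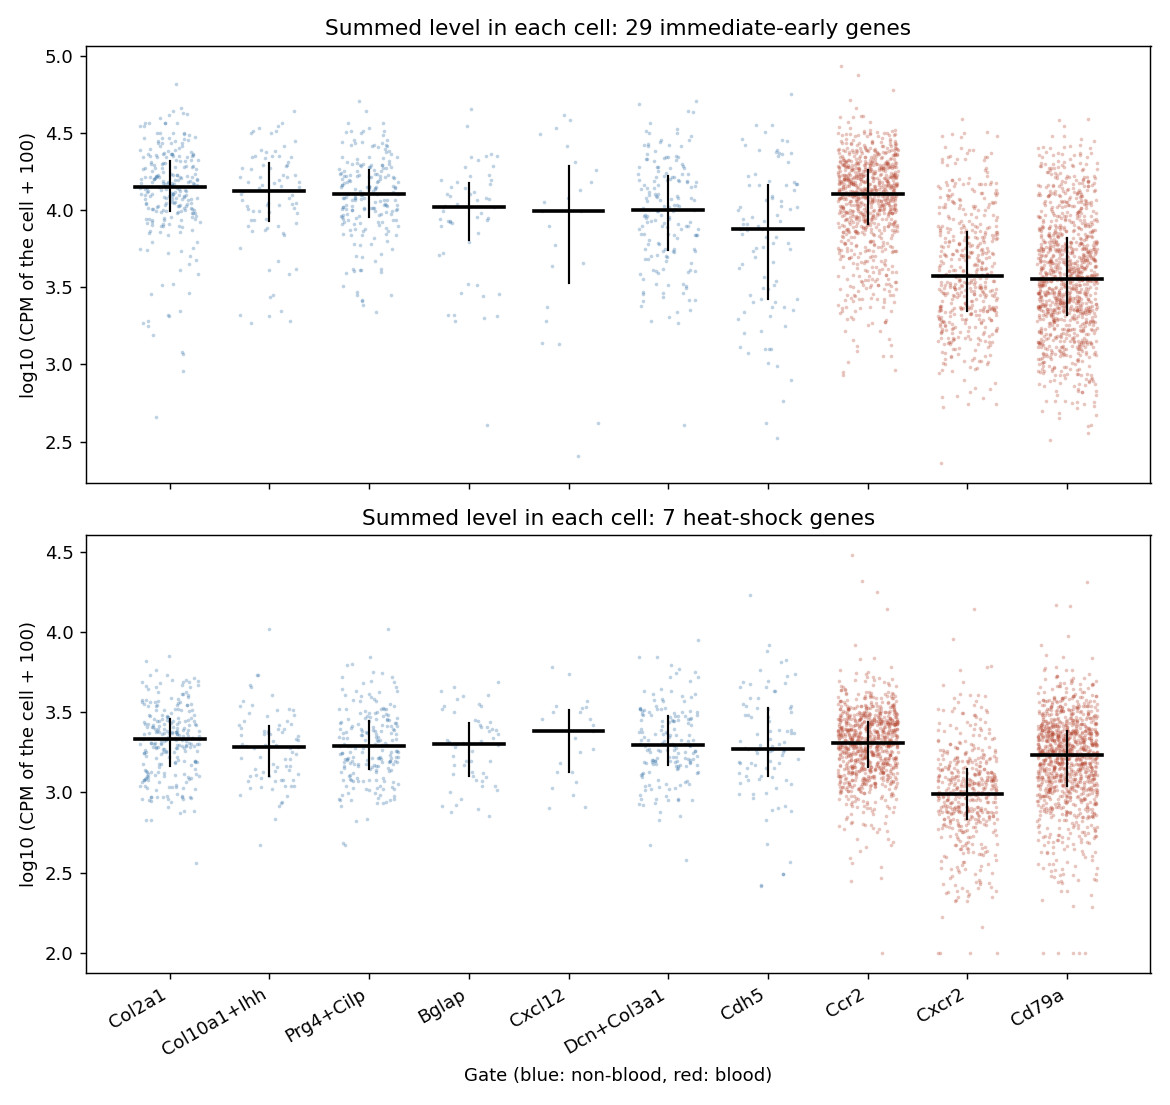
Summed level of the 29 immediate-early genes (top) and the 7 heat-shock genes (bottom) in each cell of each gate, as log10 of CPM plus 100. Points are cells, black bars are medians and vertical lines span the quartiles. The immediate-early medians run from 3501 CPM in the Cd79a gate to 14127 CPM in the Col2a1 gate, and the heat-shock medians from 884 to 2325 CPM.

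The 12 genes with the most UMIs are given by gate in full. Their 95% counting intervals reach at most 11.1% above and below the value, and 27.7% in the 23 cells of the Cxcl12 gate. Of the AP-1 genes, Fos (chr12:85473890-85477273, plus strand), the partner of Jun whose transcript lives for minutes, stood at 2266 CPM in the Col2a1 gate, 2162 in the Col10a1+Ihh gate, 1611 in the Prg4+Cilp gate, 1858 in the Bglap gate, 1632 in the Cxcl12 gate, 1725 in the Dcn+Col3a1 gate and 989.9 in the Cdh5 gate, against 414, 269 and 142 CPM in the Ccr2, Cxcr2 and Cd79a gates. All 7 non-blood gates lay above all 3 blood gates. Without its Ptprc cells the Cdh5 gate stood at 1453 CPM of Fos, against 629.8 CPM in those cells. After thinning, a Fos UMI was seen in 84.0% of Bglap cells, 81.9% of Col2a1 cells, 49.2% of Ccr2 cells and 12.8% of Cd79a cells (unthinned 98.1%, 97.1%, 70.8% and 21.4%). In the Bglap gate 1 cell gave 18.2% of the Fos UMIs.

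Jun, the partner of Fos in the classic AP-1 dimer, stood at 1253 CPM in the Col2a1 gate, 909.8 in the Col10a1+Ihh gate, 604 in the Prg4+Cilp gate, 824 in the Bglap gate, 1307 in the Cxcl12 gate, 712 in the Dcn+Col3a1 gate and 1026 in the Cdh5 gate, against 587, 248 and 214 CPM in the Ccr2, Cxcr2 and Cd79a gates. The gap between the lowest non-blood gate (Prg4+Cilp) and the highest blood gate (Ccr2) was small, and their counting intervals met (604 CPM (575 to 633) and 587 CPM (572 to 602)). Junb, which competes with Jun for Fos, had another order: it stood at 1154 CPM in the Col2a1 gate, 1281 in the Col10a1+Ihh gate, 1534 in the Prg4+Cilp gate, 740.3 in the Bglap gate, 1049 in the Cxcl12 gate, 1062 in the Dcn+Col3a1 gate and 1321 in the Cdh5 gate, against 1850.1, 695 and 491 CPM in the Ccr2, Cxcr2 and Cd79a gates. Its highest gate was a blood gate, and the Ccr2 interval (1850.1 CPM (1824 to 1877)) lay above that of every other gate. Jund, a steadily made AP-1 member, stood at 1078 CPM in the Col2a1 gate, 1023 in the Col10a1+Ihh gate, 920.3 in the Prg4+Cilp gate, 1046 in the Bglap gate, 701 in the Cxcl12 gate, 946 in the Dcn+Col3a1 gate and 851 in the Cdh5 gate, against 516, 310.2 and 716 CPM in the Ccr2, Cxcr2 and Cd79a gates. Jund thus separated the gates less than Fos did, with the Cd79a gate inside the range of the non-blood gates.

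Fosb, a Fos relative, spanned the widest range of the AP-1 genes, from 1467 CPM (1309 to 1639) in the Cxcl12 gate and 1305 CPM in the Col2a1 gate to 73.1 CPM (68.4 to 78.1) in the Cd79a gate. Its Dcn+Col3a1 and Cdh5 gates (574 and 565 CPM) still lay above Ccr2 (148 CPM). Fosl1 (Fra-1) was highest in the Col2a1 and Prg4+Cilp gates at 51.8 and 50.6 CPM and rested on 1 UMI in the Cxcl12 gate. Fosl2 (Fra-2) was highest in the Ccr2 gate (147 CPM (139 to 154)) and in the Cdh5 gate (134 CPM (111 to 161)), whose intervals overlapped, and lowest in the Cd79a gate (30.1 CPM).

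**Figure D2:**
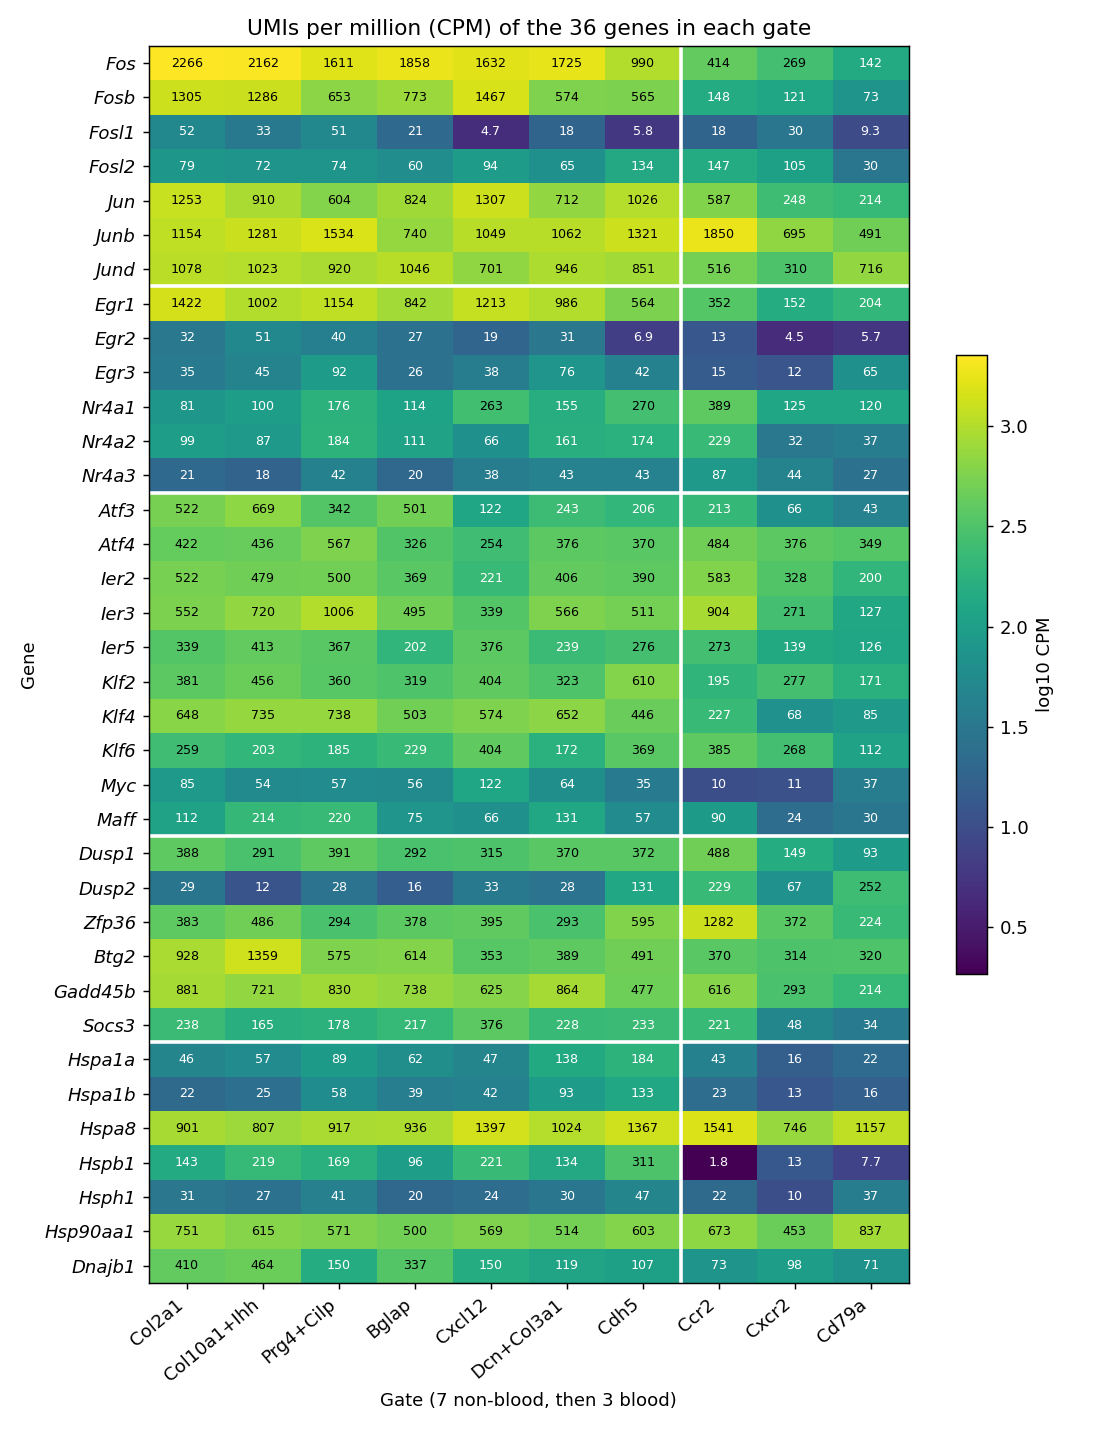
Level of the 36 genes (rows, by role) in the 10 gates (columns, 7 non-blood and then 3 blood), in CPM, with colour on a log10 scale and the CPM printed in each cell. Fos, Fosb, Jun, Egr1, Klf2, Klf4, Hspa1a, Hspb1 and Dnajb1 are higher in every non-blood gate than in every blood gate, while Zfp36 and Junb peak in the Ccr2 gate at 1282 and 1850.1 CPM.

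Of the Egr and Nr4a transcription factors, Egr1, a zinc-finger factor and a direct SRF target, stood at 1422 CPM in the Col2a1 gate, 1002 in the Col10a1+Ihh gate, 1154 in the Prg4+Cilp gate, 842 in the Bglap gate, 1213 in the Cxcl12 gate, 986 in the Dcn+Col3a1 gate and 564 in the Cdh5 gate, against 352, 152 and 204 CPM in the Ccr2, Cxcr2 and Cd79a gates. It followed Fos in lying higher in all non-blood gates, with the Cdh5 gate the lowest of these. Egr2 was highest in the Col10a1+Ihh and Prg4+Cilp gates (50.7 and 39.8 CPM) and lowest in the Cxcr2 gate (4.50 CPM). Egr3 departed from both: it was highest in the Prg4+Cilp gate (91.8 CPM (80.9 to 104)) and in the Dcn+Col3a1 gate (75.5 CPM (64.6 to 87.7)), and the Cd79a gate followed at 65.3 CPM (60.9 to 70.1), far above the Ccr2 and Cxcr2 gates (14.5 and 12 CPM). The 3 Nr4a genes, orphan nuclear receptors that antigen-receptor and hormone signals induce, all had their highest whole gate in Ccr2, at 389, 229 and 87.1 CPM for Nr4a1, Nr4a2 and Nr4a3. The Col2a1 gate, highest for Egr1, was the lowest of all gates for Nr4a1 (80.7 CPM (73.5 to 88.5)). Nr4a2, a known target of parathyroid hormone in osteoblasts, stood at 111 CPM in the Bglap gate and 184 CPM in the Prg4+Cilp gate.

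Among the Klf, Ier, Atf, Myc and Maff genes, Ier3, a survival factor of stressed cells, stood at 552 CPM in the Col2a1 gate, 720.3 in the Col10a1+Ihh gate, 1006 in the Prg4+Cilp gate, 495 in the Bglap gate, 339 in the Cxcl12 gate, 566 in the Dcn+Col3a1 gate and 511 in the Cdh5 gate, against 904, 271 and 127 CPM in the Ccr2, Cxcr2 and Cd79a gates. The Prg4+Cilp and Ccr2 gates thus led, with intervals that did not overlap (1006 CPM (969 to 1044) and 904 CPM (886 to 923)). Atf4, which is controlled largely at translation by the integrated stress response, stood at 422 CPM in the Col2a1 gate, 436 in the Col10a1+Ihh gate, 567 in the Prg4+Cilp gate, 326 in the Bglap gate, 254 in the Cxcl12 gate, 376 in the Dcn+Col3a1 gate and 370.5 in the Cdh5 gate, against 484, 376 and 349 CPM in the Ccr2, Cxcr2 and Cd79a gates. Its range over gates was 2.23-fold, and the blood gates lay among the non-blood gates. Klf4, a growth-arrest factor, ran from 738 CPM (706 to 770.2) in the Prg4+Cilp gate and 735 CPM in the Col10a1+Ihh gate to 67.7 CPM (61.5 to 74.4) in the Cxcr2 gate. Klf2, the shear-stress factor of endothelium, was highest in the Cdh5 gate (610.1 CPM (559 to 665)), at 947 CPM in its cells without Ptprc against 348 CPM in those with it. Klf6 was highest in the Cxcl12, Ccr2 and Cdh5 gates (404, 385 and 369 CPM), whose intervals overlapped.

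Atf3, a stress-induced repressor, was highest in the Col10a1+Ihh, Col2a1 and Bglap gates (669, 522 and 501 CPM), which share cells. It was lower in the Cxcl12 gate (122 CPM (79.9 to 179)) than in any other non-blood gate. Ier2 peaked in the Ccr2 gate (583 CPM) and Ier5 in the Col10a1+Ihh gate (413 CPM). Maff, a small Maf factor, was highest in the Prg4+Cilp and Col10a1+Ihh gates (219.9 and 214 CPM), which shared 35 cells. Myc, the growth regulator, was highest in the Cxcl12 and Col2a1 gates (122 and 84.6 CPM), and in the blood gates it stood at 37.4 CPM in the Cd79a gate against 10.2 and 10.7 CPM in the other two.

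The last 6 genes, grouped here as feedback genes, divided. Products of Zfp36, Dusp1, Dusp2 and Socs3 damp the signal, while Btg2 and Gadd45b have other roles. Zfp36 (tristetraprolin), which destroys cytokine and early-gene transcripts, stood at 383 CPM in the Col2a1 gate, 486 in the Col10a1+Ihh gate, 294 in the Prg4+Cilp gate, 378 in the Bglap gate, 395 in the Cxcl12 gate, 293 in the Dcn+Col3a1 gate and 595 in the Cdh5 gate, against 1282, 372 and 224 CPM in the Ccr2, Cxcr2 and Cd79a gates. The Ccr2 gate was more than 2-fold above any other for Zfp36. Btg2, an antiproliferative gene, had its peak at the other end, standing at 928 CPM in the Col2a1 gate, 1359 in the Col10a1+Ihh gate, 575 in the Prg4+Cilp gate, 614 in the Bglap gate, 353 in the Cxcl12 gate, 389 in the Dcn+Col3a1 gate and 491 in the Cdh5 gate, against 370.0, 314 and 319.6 CPM in the Ccr2, Cxcr2 and Cd79a gates. Its Col10a1+Ihh interval (1359 CPM (1308 to 1411)) lay above that of the Col2a1 gate (928 CPM (903 to 953)). Gadd45b, a stress sensor upstream of p38, stood at 881 CPM in the Col2a1 gate, 721 in the Col10a1+Ihh gate, 829.9 in the Prg4+Cilp gate, 738 in the Bglap gate, 625 in the Cxcl12 gate, 864 in the Dcn+Col3a1 gate and 477 in the Cdh5 gate, against 616, 293 and 214 CPM in the Ccr2, Cxcr2 and Cd79a gates. Its highest gates, Col2a1 and Dcn+Col3a1, had intervals that overlapped. Dusp1, a phosphatase of p38 and JNK, was highest in the Ccr2 gate (488 CPM) and lowest in the Cd79a gate (93.1 CPM). Gene models on the same strand overlap Dusp1 and Hspa8, so that their counts may be incomplete. Those that overlap Hspa8 are the small RNA genes Snord14c, Snord14d and Snord14e, and their part in its count was not tested. Dusp2 (PAC-1; chr2:127336159-127338376, plus strand), a phosphatase of activated leukocytes, was highest in the Cd79a gate (252 CPM (243 to 262)) and the Ccr2 gate (229 CPM (219.8 to 238)). In the Cdh5 gate it stood at 116 CPM without and 142 CPM with Ptprc, and in the other non-blood gates between 11.7 and 32.9 CPM. Socs3, the cytokine-signal inhibitor, was highest in the Cxcl12 gate (376 CPM (298 to 468)) and lowest in the Cd79a gate (34.2 CPM).

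Of the heat-shock genes, Hspa8 stood at 901 CPM in the Col2a1 gate, 807 in the Col10a1+Ihh gate, 917 in the Prg4+Cilp gate, 936 in the Bglap gate, 1397 in the Cxcl12 gate, 1024 in the Dcn+Col3a1 gate and 1367 in the Cdh5 gate, against 1541, 746 and 1157 CPM in the Ccr2, Cxcr2 and Cd79a gates. Hsp90aa1, the inducible cytosolic HSP90, stood at 751 CPM in the Col2a1 gate, 615 in the Col10a1+Ihh gate, 571 in the Prg4+Cilp gate, 500.1 in the Bglap gate, 569 in the Cxcl12 gate, 514 in the Dcn+Col3a1 gate and 603 in the Cdh5 gate, against 673, 453 and 837 CPM in the Ccr2, Cxcr2 and Cd79a gates. Both were lowest in the Cxcr2 gate, with ranges over gates of 2.06-fold and 1.85-fold. The inducible HSP70 genes behaved differently. Hspa1a was highest in the Cdh5 gate (184 CPM (157 to 215)), the Dcn+Col3a1 gate (138 CPM (123 to 154)) and the Prg4+Cilp gate (89.3 CPM), and Hspa1b in the same 3 gates (133, 92.7 and 58.1 CPM), where the Col2a1 gate stood at 46.5 and 21.7 CPM. In the Cdh5 gate the 42 cells without Ptprc held 344 CPM of Hspa1a and the 47 with it 59.7 CPM, and 1 cell gave 27.0% of the gate's Hspa1a UMIs.

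Dnajb1, the HSP40 partner of HSP70, was instead highest in the Col10a1+Ihh, Col2a1 and Bglap gates, with 464 CPM (434 to 495) in the Col10a1+Ihh gate, 410.2 CPM (394 to 427) in the Col2a1 gate and 337 CPM (308 to 368) in the Bglap gate, and 149.6, 119 and 107 CPM in the Prg4+Cilp, Dcn+Col3a1 and Cdh5 gates. The Ccr2 and Cd79a gates held 73.3 and 71.1 CPM. The Cxcr2 interval (97.8 CPM (90.3 to 106)) overlapped that of the Cdh5 gate (107 CPM (85.9 to 131)), whose cells with Ptprc held 80.3 CPM. The 3 gates highest for Dnajb1 share cells. Hspb1 (HSP25; chr5:135887919-135889563, plus strand), a small heat-shock protein of the cytoskeleton, had the widest range of the 36 genes, from 311 CPM (275 to 351) in the Cdh5 gate to 1.85 CPM (1.11 to 2.89) in the Ccr2 gate. A single cell gave 75.3% of the UMIs behind its Cxcr2 value of 13.2 CPM, and the same cell, which lay in both gates and in the Col2a1 gate, gave 45.4% of those behind its Bglap value of 95.7 CPM. Hsph1, an HSP110 that reloads HSP70, ranged from 10.1 CPM (Cxcr2) to 47.5 CPM (Cdh5), and its Cd79a value of 37.1 CPM lay among the non-blood gates.

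**Figure D3:**
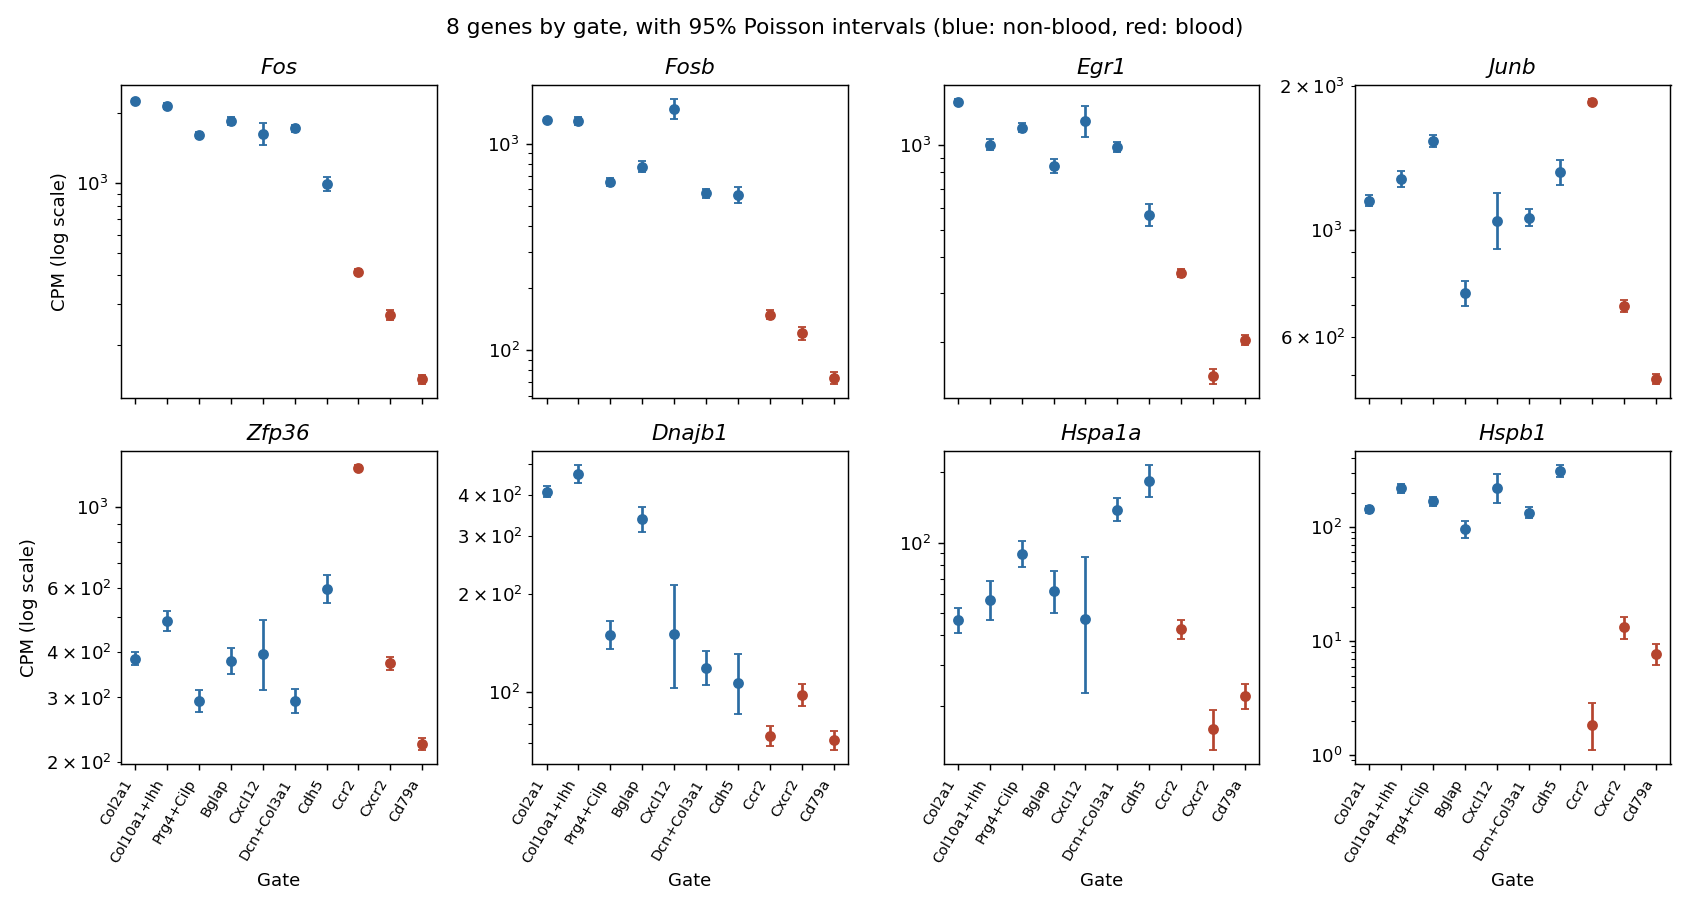
CPM of 8 of the genes in each gate on log axes, with exact 95% Poisson intervals, blue for non-blood and red for blood gates. Fos, Fosb and Egr1 are higher in every non-blood than in every blood gate, Junb and Zfp36 are highest in the Ccr2 gate, Dnajb1 is highest in the Col10a1+Ihh gate at 464 CPM, Hspa1a rises to 184 CPM in the Cdh5 gate, and Hspb1 stands at 1.85 to 13.2 CPM in the blood gates.

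Over the 36 genes the highest and lowest gates differed by a median of 6.32-fold. For 9 genes (Fos, Fosb, Jun, Egr1, Klf2, Klf4, Hspa1a, Hspb1 and Dnajb1) every non-blood gate was above every blood gate, as held for 11.5% of the 12413 genes tested (at least 50 UMIs), and for 0 genes every blood gate was above every non-blood gate, against 7.27% of all genes. For Jun, Hspa1a and Dnajb1 the interval of at least 1 non-blood gate overlapped that of a blood gate, which left 6 genes with every interval apart, against 3.18% of all genes. Ccr2 was the highest gate for 9 genes (Hspa8, Junb, Zfp36, Ier2, Dusp1, Nr4a1, Nr4a2, Nr4a3 and Fosl2), where it was for 10.9% of all genes, and Cd79a and Cxcr2 were the lowest for 16 and 13, where they were for 6.01% and 17.3%. The Bglap and Dcn+Col3a1 gates were highest for 0 genes, and for 3.75% and 3.76% of all genes.

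Part of the order of the gates rested on the leukocyte-marked cells of the Cdh5 gate. Of the 36 genes, 28 were higher in its 42 cells without Ptprc than in its 47 cells with it, as were 51.3% of the 12413 genes. Jun stood at 1411 against 727 CPM and Junb at 1572 against 1126 CPM, without and with Ptprc. Egr1 stood at 717 against 445 CPM, Jund at 966 against 762 CPM and Ier3 at 815 against 274 CPM. Hspb1 stood at 619 against 72.0 CPM, Hspa8 at 1797 against 1033 CPM and Hsp90aa1 at 699 against 529 CPM. The split was smaller for Gadd45b (519 against 445 CPM) than for Dnajb1 (140.3 against 80.3 CPM), and 8 genes went the other way, as did 44.5% of all genes. Among these Zfp36 stood at 439 against 716 CPM, Btg2 at 429 against 539 CPM and Atf4 at 286 against 436 CPM.

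With the cells without Ptprc standing for the Cdh5 gate, a choice made after seeing the data, that gate was the highest for 11 genes (Fosl2, Jun, Nr4a2, Klf2, Klf6, Socs3, Hspa1a, Hspa1b, Hspa8, Hspb1 and Hsph1), where it was for 20.5% of all genes. The Ccr2 gate then led for 6 genes in place of 9 (11.2% of all genes), since Hspa8, Fosl2 (209 CPM) and Nr4a2 (281 CPM) were higher in these 42 cells. Klf6 stood at 476 CPM and Socs3 at 381 CPM in them. Every non-blood gate was then above every blood gate for 10 genes, the 9 above and Myc, against 12.1% of all genes.

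The non-blood cells (544 in no blood gate) were then set against the blood cells (2156 in no non-blood gate). Of the 544 cells, 214 were in the Col2a1 gate, whose median cell held 19589 UMIs, against 12872.5 over all 544. The sums weigh deep cells most, so that Col2a1 cells weigh heavily in these ratios and counts. Fos stood at 2042 against 208 CPM, Egr1 at 1289 against 207 CPM and Hspb1 at 163 against 1.68 CPM. Of the 36 genes, 18 were at least 2-fold higher in the non-blood cells, where 23.9% of the 12297 genes tested were, and 1, Dusp2, was at least 2-fold lower, where 24.1% were. The median log2 ratio was 1.01 over the 36 genes and -0.22 over all genes tested. Relative to that median, 20 were at least 2-fold higher and 1 lower, where 26.6% and 19.4% of all genes were. The largest log2 ratios were those of Hspb1 at 6.60 (6.16 to 7.08), Fosb at 3.78 (3.71 to 3.85) and Fos at 3.29 (3.25 to 3.34). The smallest were those of Dusp2 at -3.10 (-3.31 to -2.90), Nr4a1 at -0.83 (-0.92 to -0.73) and Nr4a3 at -0.77 (-0.97 to -0.58).

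By role, the sum of the 7 AP-1 genes was 6593 against 2248 CPM, a log2 ratio of 1.55 (1.54 to 1.57), and that of the 6 Egr and Nr4a genes had a log2 ratio of 1.41 (1.37 to 1.44). The 10 Klf, Ier, Atf, Myc and Maff genes gave 0.95 (0.93 to 0.97) and the 6 genes grouped as feedback genes 0.51 (0.48 to 0.53), of whose UMIs Gadd45b gave 32.4% in the non-blood cells and Zfp36 34.8% in the blood cells. All 29 immediate-early genes together stood at 14862 against 6789 CPM (1.13 (1.12 to 1.14)). For the 7 heat-shock genes the sums were close, at 2248 against 2043 CPM (0.14 (0.11 to 0.16)), although Hspa1a, Hspa1b, Hspb1 and Dnajb1 were each over 2-fold higher and Hspa8 stood at -0.32. In cells with at least 2500 genes the heat-shock ratio was -0.053 and the immediate-early ratio 1.47. The non-blood cells held 8736 CPM of neutrophil markers and 17310 CPM of erythroid markers, against 77643 and 30772 CPM in the blood cells, while the blood cells held 58.0 CPM of chondrocyte markers against 50528 CPM, and the part of such RNA in the ratios was not tested.

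**Figure D4:**
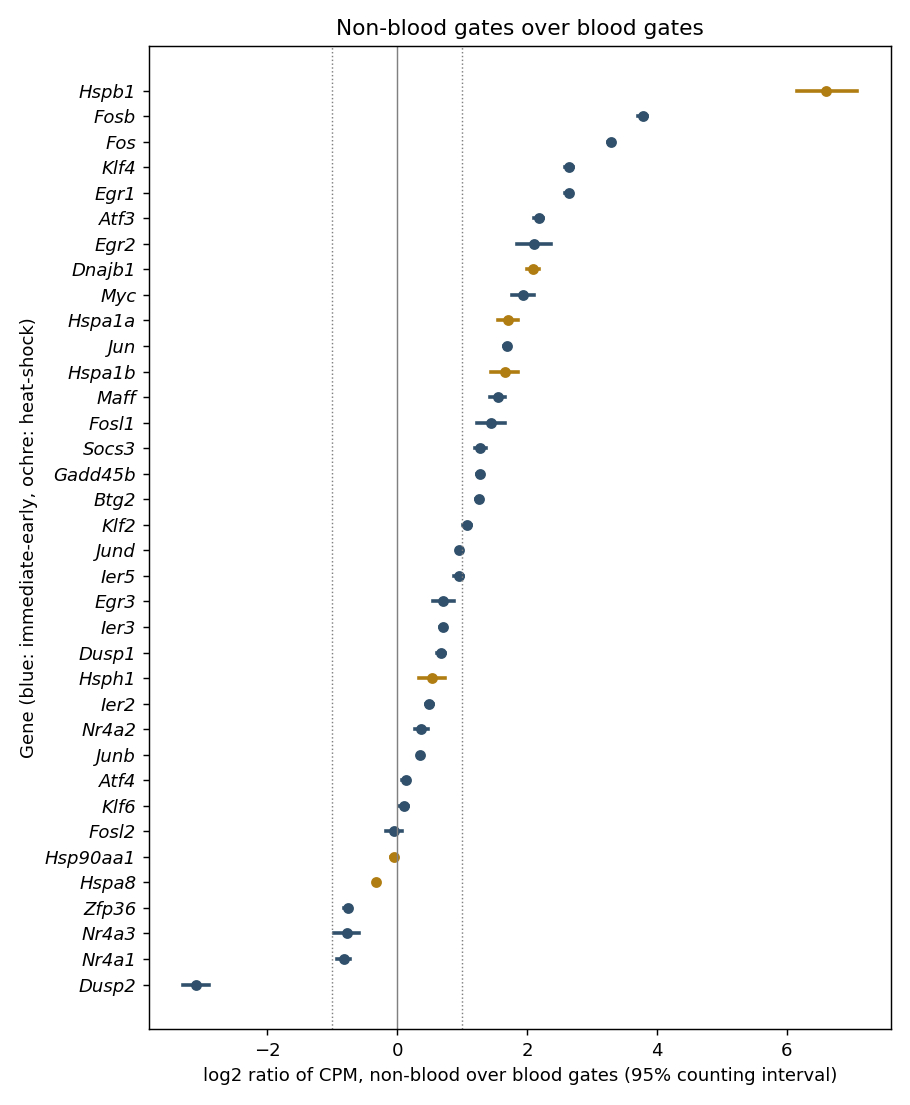
Log2 ratio of CPM in non-blood cells (544) over blood cells (2156) for each of the 36 genes, with exact 95% counting intervals. Dotted lines mark 2-fold, ochre marks heat-shock genes, and the ratios run from -3.10 for Dusp2 to 6.60 for Hspb1.

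For genes around these pathways, the counts are again to be read against the 23.9% of all genes that were higher and the 24.1% that were lower. Of 16 genes upstream of the immediate-early response (among them SRF, its cofactors, CREB, MAP kinases and the receptor gene Egfr), 4 were at least 2-fold higher in the non-blood cells and 4 lower, from Egfr at 5.87 and Mkl2 at 1.29 to Creb1 at -1.39 and Mkl1 at -1.56 (log2 ratios). Of 42 other early-response genes, 15 were higher and 15 lower, with a median of -0.0043. The matricellular genes Cyr61 and Ctgf led at 656 against 2.12 CPM and 1484 against 5.92 CPM, and the chemokines Cxcl2 (114 against 1967 CPM) and Ccl3 (6.56 against 182 CPM) were the lowest. Of 28 other chaperones and heat-shock regulators, 5 were higher and 0 lower, with a median of -0.23: the small heat-shock genes Hspb8 (6.81) and Cryab (6.38) were the largest and Fkbp4 (-0.79) and Hspa14 (-0.98) the smallest. Of 14 Atf4 and unfolded-protein targets 4 were higher and 3 lower, from Vldlr (5.31) and Nupr1 (3.77) to Psat1 (-2.81) and Slc7a11 (-4.23). Of 9 hormone-induced genes of bone cells, 2 of them (Nr4a2 and Fosl2) members of the 36, 3 were higher and 3 lower, from Mmp13 (90.5 against 4.20 CPM) and Pde10a (2.25) to Il6 (-2.57) and Areg (-3.91).

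Each gate was also set against all other gated cells, in which blood cells are the majority, and each count below stands beside the share of the 12413 genes tested that passed 2-fold in that direction. In the Col2a1 gate 14 of the 36 genes were higher (17.2%) and 3 lower (29.8%), from Fosb (3.04 on the log2 scale), Dnajb1 (2.51) and Fos (2.48) to Nr4a3 (-1.30), Nr4a1 (-1.43) and Dusp2 (-2.63). In the Col10a1+Ihh gate 11 were higher (13%) and 3 lower (33.1%), from Hspb1 (2.64), Fosb (2.17) and Dnajb1 (2.13) to Nr4a1 (-1.01), Nr4a3 (-1.44) and Dusp2 (-3.81). These gates share 43 cells and the same 3 lowest genes. In the Prg4+Cilp gate 12 were higher (14.3%) and 2 lower (24.2%), from Hspb1 (2.27), Maff (1.91) and Egr2 (1.70) to Klf6 (-0.42), Zfp36 (-1.0) and Dusp2 (-2.59). In the Bglap gate 5 were higher (11.4%) and 2 lower (34.4%), from Dnajb1 (1.53), Fos (1.5) and Atf3 (1.49) to Nr4a1 (-0.80), Nr4a3 (-1.22) and Dusp2 (-3.37). Relative to the median of all genes, which lay between -0.52 (Bglap) and -0.30 (Prg4+Cilp) in these 4 gates, 18 of the 36 were higher in the Col2a1 gate (23.1% of all genes), 18 in the Col10a1+Ihh gate (20.7%), 17 in the Prg4+Cilp gate (19.1%) and 16 in the Bglap gate (19.6%). In the same order 2, 1, 1 and 1 were then lower (22.0%, 23.9%, 18.2% and 22.8% of all genes).

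In the Cxcl12 gate 8 were higher (24.3%) and 2 lower (29.8%), from Hspb1 (2.31), Fosb (2.13) and Myc (1.80) to Ier2 (-0.85), Dusp2 (-2.24) and Fosl1, whose single UMI gave an interval that included 0. In the Dcn+Col3a1 gate 8 were higher (16.3%) and 1 lower (23.0%), from Hspa1b (2.21), Hspa1a (2.03) and Hspb1 (1.77) to Klf6 (-0.52), Zfp36 (-0.99) and Dusp2 (-2.56). In the Cdh5 gate 4 were higher (16.6%), Klf2 and the same 3 heat-shock genes, and 2 lower (13.4%), from Hspb1 (3.0), Hspa1b (2.60) and Hspa1a (2.32) to Maff (-0.33), Egr2 (-1.07) and Fosl1 (-1.99). Relative to the median of all genes 13 were higher in the Dcn+Col3a1 gate (19.6% of all genes) and 1 lower (18.7%).

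In the Ccr2 gate 10 were higher (9.22%) and 5 lower (22.4%), from Zfp36 (2.24), Nr4a2 (1.77) and Nr4a1 (1.75) to Egr3 (-1.80), Myc (-2.17) and Hspb1 (-5.10). In the Cxcr2 gate 0 were higher (5.68%) and 20 lower (32.7%), from Fosl1 (0.52), Fosl2 (0.35) and Klf2 (0.18) to Hspb1 (-2.0), Nr4a2 (-2.05) and Klf4 (-2.21). The median of all genes tested was -0.59 there, and relative to it 12 of the 36 were lower (18.2% of all genes) and 1 higher (12.2%). In the Cd79a gate 2 were higher (14.2%) and 24 lower (24.9%), from Egr3 (1.27), Dusp2 (1.27) and Hsph1 (0.64) to Fosb (-2.72), Fos (-2.81) and Hspb1 (-3.08).

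The cartilage gates were compared with each other. The 185 Prg4+Cilp cells outside the Col2a1 gate were set against the 231 Col2a1 cells outside the Prg4+Cilp gate, and the immediate-early sums were 13732 and 15654 CPM (log2 ratio -0.19 (-0.21 to -0.17)). Of the 36 genes, 6 were at least 2-fold higher in the Prg4+Cilp cells (10.7% of 8821 genes tested) and 3 lower (8.97%). The largest log2 ratios were those of Hspa1b at 1.53 (1.18 to 1.90), Egr3 at 1.51 (1.23 to 1.79) and Nr4a1 at 1.22 (1.03 to 1.41), and Nr4a3, Maff and Hspa1a also passed 2-fold. Relative to the median of all genes (0.045) 5 were higher (10.0% of all genes), without Hspa1a, and 3 lower (9.64%). The smallest were those of Dnajb1 at -1.81 (-1.99 to -1.63), Jun at -1.23 (-1.32 to -1.15) and Fosb at -1.21 (-1.30 to -1.13). In CPM, Jun stood at 537 against 1261, Nr4a1 at 189 against 81.0 and Dnajb1 at 117 against 410.4. Fos differed by -0.54 (-0.59 to -0.48) and Junb by 0.47 (0.41 to 0.53). Median depth was 11940 UMIs in the Prg4+Cilp gate and 19589 in the Col2a1 gate, and 81 of the 197 Prg4+Cilp cells were also in the Dcn+Col3a1 gate. Fibroblast and tendon markers summed to 11843 against 2479 CPM and erythroid markers to 25106 against 10068 CPM in the 2 gates, and the part of these in the ratios was not tested.

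Within blood, Ccr2 cells above the gene floor were set against the other blood cells above it; the Cxcr2 barcodes under the floor, described next, held an immediate-early sum near that of the Ccr2 gate. The 759 Ccr2 cells outside the other blood gates held 11636 CPM of the immediate-early genes against 4331 CPM in the 1394 cells of the Cxcr2 and Cd79a gates alone, a log2 ratio of 1.43 (1.41 to 1.44). Of the 36 genes, 21 were at least 2-fold higher (12% of 11042 genes tested), of them 20 immediate-early genes and Hspa1a, and 3 lower (16.3%). The largest log2 ratios were those of Nr4a2 at 3.09 (2.95 to 3.24) (245 against 28.7 CPM), Socs3 at 3.04 (2.89 to 3.19) and Ier3 at 2.84 (2.77 to 2.91) (940.5 against 131 CPM). The smallest were those of Hspb1 at -2.66 (-3.53 to -1.90), Egr3 at -1.87 (-2.17 to -1.59) and Myc at -1.66 (-2.02 to -1.32). A single cell gave 75.3% of the Hspb1 UMIs of the Cxcr2 gate. Without the cells that were also in a non-blood gate, a choice made after seeing the data, Hspb1 stood at 0.689 against 2.39 CPM on 6 and 36 UMIs, together under the 50 needed for a count. Without these cells the immediate-early log2 ratio was 1.65 (1.64 to 1.67) and the heat-shock one 0.39 (0.36 to 0.42), and 22 of 35 genes were higher (13.8% of all genes) and 2 lower (14.2%). The median over the 36 was 1.26 and over all genes -0.11. The genes grouped as feedback genes had the largest ratio of the role groups (1.68 (1.66 to 1.71)) and the heat-shock genes a ratio of 0.36 (0.34 to 0.39). Without called doublets the Ccr2, Cxcr2 and Cd79a gates held 11444, 4770.2 and 4163 CPM of the immediate-early genes.

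The Cxcr2 value depended on the gene floor. Neutrophils hold little RNA, and 1078 barcodes with a Cxcr2 UMI, at a median of 3392 UMIs, lay under 1600 genes, against 481 above it at a median of 11640. Under the floor the immediate-early sum was 11082 CPM (10978 to 11185) and the heat-shock sum 600.1 CPM (576 to 625). Set against the Cxcr2 gate these are log2 ratios of 1.09 (1.07 to 1.11) and -1.17 (-1.23 to -1.10). The 2 groups of genes thus differed in opposite directions between the barcodes under the floor and the cells above it. Of the 35 genes with at least 50 UMIs, 13 were at least 2-fold higher under the floor (8.19% of 8184 genes tested) and 9 lower (40.3%), among the 9 all 7 heat-shock genes. The median over all genes tested was -0.64, and relative to it 19 were higher (20.4% of all genes) and 6 lower (26.7%). The largest log2 ratios were those of Gadd45b at 1.77 (1.69 to 1.85) (999.9 against 293 CPM), Junb at 1.69 (1.64 to 1.75) (2248 against 695 CPM) and Ier5 at 1.68 (1.56 to 1.79). The smallest, each on few UMIs under the floor, were those of Hsph1 at -4.33 (-7.41 to -2.42), Hspa1a at -3.98 (-5.89 to -2.58) and Hspb1 at -3.72 (-5.63 to -2.31). Fos differed by -0.054 (-0.17 to 0.058) and Jun by -0.68 (-0.81 to -0.54), while Zfp36 stood at 1167 against 372 CPM. Neutrophil markers stood at 262967 CPM under and 251377 CPM above the floor, and 111 of the 481 cells above it were called doublets. Chondrocyte markers summed to 111 against 5269 CPM, osteoblast markers to 58.1 against 908 CPM, B cell markers to 296 against 1275 CPM and erythroid markers to 56104 against 28440 CPM, under and above the floor. Of the 481 cells above it, 9 were also in the Col2a1 gate, 5 in the Col10a1+Ihh gate and 6 in the Bglap gate, and 1 cell gave 75.3% of the gate's Hspb1 UMIs. Without cells of any non-blood gate (461 of the 481 left), a choice made after seeing the data, the immediate-early log2 ratio was 1.26 (1.24 to 1.29) and the heat-shock one -1.11 (-1.17 to -1.04). Of 33 genes 16 were then higher (8.57% of all genes) and 6 lower (37.0%), among them 5 of the 6 heat-shock genes with at least 50 UMIs. Hspb1 then stood at 1.00 against 1.84 CPM on 4 and 11 UMIs, too few for a count. Neutrophils of different stages were not told apart on either side of the floor. The part of stage, of depth, of called doublets and of the other cell types' markers in this difference was not tested.

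HC-derived cells were those with more than 14 WPRE UMIs, the study's threshold. In the Bglap and Cxcl12 gates together, 27 such cells held 11638 CPM of the immediate-early genes and the other 50 cells 12053 CPM, a log2 ratio of -0.051 (-0.095 to -0.0067), and the heat-shock sums were 1978 and 2077 CPM (-0.070 (-0.18 to 0.036)). The sign of the first turned with the WPRE threshold, being 0.062 above 9 and 0.078 above 19 UMIs, and it was -0.71 in cells of exactly 1 gate. Of the 30 genes with at least 50 UMIs, 1 was at least 2-fold higher in HC-derived cells (3.98% of 3821 genes tested) and 2 lower (6.36%). The largest log2 ratios were those of Klf6 at 1.49 (1.2 to 1.77) (457 against 163 CPM), Myc at 0.67 (0.085 to 1.25) and Ier3 at 0.67 (0.46 to 0.88). The smallest were those of Hspb1 at -3.71 (-5.17 to -2.56) (11.8 against 154 CPM), Hspa1a at -1.2 (-2.07 to -0.41) and Dusp1 at -0.99 (-1.33 to -0.65). The Hspb1 ratio rested on 6 UMIs in 3 HC-derived cells against 182 UMIs in 22 of the others, of which 1 cell, which was also in the Col2a1 and Cxcr2 gates, gave 35.2%. Without that cell, a choice made after seeing the data, the others held 105 CPM and the ratio was -3.16 (-4.63 to -1.99). AP-1 genes gave -0.27 (-0.34 to -0.20) and the Klf, Ier, Atf, Myc and Maff genes 0.44 (0.35 to 0.52). Of the HC-derived cells 10 of 27 were in the Cxcl12 gate and of the others 13 of 50, and 6 of 27 and 19 of 50 were also in the Col2a1 gate. None of the 27 and 4 of the 50 were in the Cdh5 gate, the highest for Hspb1 and Hspa1a, and endothelial markers summed to 15.7 and 253 CPM. Neutrophil markers summed to 509.7 and 12473 CPM in HC-derived and other cells, and chondrocyte markers to 19844 and 49511 CPM. Hypertrophic chondrocyte markers summed to 9926 and 4907 CPM and osteoblast markers to 162542 and 129287 CPM. The part of any of these in the ratios was not tested.

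Single cells varied widely around these levels. Between quartiles the immediate-early sum differed 2.03-fold in the Prg4+Cilp gate, 2.11-fold in the Col2a1 gate, 5.94-fold in the Cxcl12 gate and 5.66-fold in the Cdh5 gate (2.47-fold in its cells without Ptprc and 5.18-fold in those with it). Each cell was thinned to 3000 UMIs and scored for 14 core release genes (Fos, Fosb, Jun, Junb, Egr1, Ier2, Atf3, Dusp1, Zfp36, Btg2, Nr4a1, Hspa1a, Hspa1b and Dnajb1). The median cell showed 7.90 of the 14 in the Col2a1 gate, 7.69 in the Cxcl12 gate, 7.65 in the Bglap gate, 7.63 in the Col10a1+Ihh gate, 7.56 in the Prg4+Cilp gate, 7.15 in the Dcn+Col3a1 gate and 7.04 in the Ccr2 gate. The Cdh5 gate fell at 5.60, and at 7.77 without and 3.55 with Ptprc, and the Cxcr2 and Cd79a gates at 3.36 and 2.55. At least 5 of the 14 were seen in 87.2% of Col2a1 cells and 21% of Cd79a cells, with 39 of 243 and 174 of 1066 cells between 4 and 6.

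**Figure D5:**
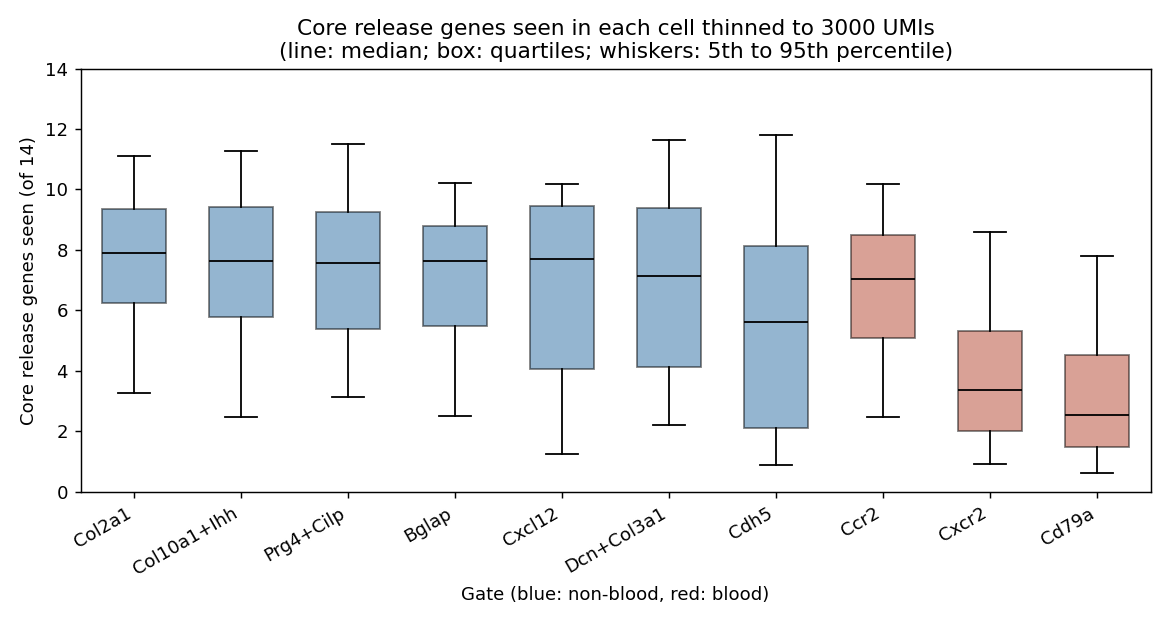
Number of 14 core release genes seen in each cell thinned to 3000 UMIs, by gate, with the median, quartiles and the 5th to 95th percentile. Medians lie between 5.60 and 7.90 in the non-blood gates, at 7.04 in the Ccr2 gate and at 3.36 and 2.55 in the Cxcr2 and Cd79a gates.

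Across the cells of a gate, which share 1 library and whose levels share a depth, Fos and Jun levels correlated with Pearson's r from 0.404 (Col10a1+Ihh) to 0.860 (Cxcl12) in the non-blood gates and from 0.233 (Ccr2) to 0.344 (Cxcr2) in the blood gates. The immediate-early and heat-shock sums correlated with r from 0.348 (Col2a1) to 0.680 (Cxcl12) in the non-blood gates, where the gates held 23 to 243 cells, and with r of -0.0226, 0.0977 and -0.168 in the Ccr2, Cxcr2 and Cd79a gates. Cells high for one group of genes were thus often high for the other in the non-blood gates, and in the blood gates the values showed little of this. The rank correlation of the immediate-early sum with the cell's UMIs was -0.461, -0.381 and -0.375 in the Ccr2, Cxcr2 and Cd79a gates, and from -0.116 (Dcn+Col3a1) to 0.226 (Cdh5) in the non-blood gates. That of the heat-shock sum was 0.299, 0.339 and 0.342 in the same blood gates, and from -0.270 (Prg4+Cilp) to 0.436 (Col10a1+Ihh) in the non-blood gates. In blood, shallower cells thus held more of the immediate-early and less of the heat-shock genes per UMI.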

How the data were processed

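The authors aligned 10x Genomics reads with Cell Ranger 3.1.0 to mm10, per the labels, and deposited counts of UMIs for 31053 mouse genes in 12564 barcodes (91463572 UMIs), with a second matrix of counts for exogenous sequences, from which WPRE was read. No source used here gives their annotation release. The matrices pool 8 labelled samples with no mark of sample, so there is 1 sample, no test and no p-value. The 36 genes, the gene lists and the gates were chosen with earlier results of these data known.

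Barcodes with at least 1600 genes were gated on raw UMIs, and cells could fall in several gates. CPM is the summed UMIs of a gene over all UMIs of the gate, per 1000000, with exact 95% Poisson intervals, and log2 ratios of CPM have exact conditional intervals. A gene was called at 2-fold among those with at least 50 UMIs over both sides. Cells were thinned to 3000 UMIs in 100 draws. Doublets were called by Scrublet in scanpy 1.11.5 (expected rate 6%) and kept, as the study names no removal. Of all barcodes 445 (3.54%) were called, among them 111 in the Cxcr2, 172 in the Cd79a and 64 in the Ccr2 gate. The text names all 36 genes, gives the 12 with the most UMIs in every gate, and in each comparison the 3 largest and 3 smallest log2 ratios. From every other list it gives the 2 largest and the 2 smallest. Other genes that are singled out were chosen after their values were seen. Scripts ran in Python 3.11.15 with numpy 2.4.6, scipy 1.17.1 and pandas 2.3.3, and the ratio step was tested on simulated data. Alternatives changed the gene floor, gate thresholds, overlap, weighting, doublets, CPM denominator, centring, UMI minimum, thinning and WPRE threshold.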

Additional observations from a re-analysis of the deposited data

Results flagged for a closer look

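The 1691 barcodes that passed the gene floor and fell in none of the 10 gates belong to no comparison above, and their values are given for that reason alone, since any expressed gene passes the limit that a count of 0 allows. Their immediate-early genes summed to 3522 CPM and their heat-shock genes to 1732 CPM, where the Cd79a gate, the lowest for the first, held 4552 CPM, and the Cxcr2 gate, the lowest for the second, 1349 CPM. Neutrophil markers summed to 157342 CPM and erythroid markers to 69394 CPM in them.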

How the results depend on the processing

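On the log2 scale the immediate-early sum of non-blood over blood cells (1.13) was 1.12 with a floor of 1000 genes and 1.47 with 2500, 1.17 in cells of exactly 1 gate, 1.02 with gate thresholds doubled, 0.82 with each cell weighing the same, 1.14 without called doublets, 1.11 with CPM taken without mitochondrial, haemoglobin and the top 20 genes, and 1.35 centred on the median of all genes. The heat-shock sum (0.14) was 0.33 and -0.053 with these floors, the second of opposite sign, and 0.17, 0.092, 0.34, 0.072 and 0.36 for exactly 1 gate, doubled thresholds, equal weights, no doublets and centring. With equal weights 2 of the 36 genes were at least 2-fold lower (22.0% of all genes) and 15 higher (24.5%), against 16 higher (24.3%) and 23 higher (22.8%) with floors of 1000 and 2500 genes.

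For HC-derived over other cells the immediate-early sum (-0.051) was -0.71 in cells of exactly 1 gate, 0.026 with doubled thresholds, -0.18 with equal weights, and -0.19, 0.062 and 0.078 above 4, 9 and 19 WPRE UMIs, so that its sign was not stable. The heat-shock sum (-0.070) was 0.090 with doubled thresholds and -0.18 above 9 UMIs. Chosen after seeing the data, leaving out non-blood cells with a Ptprc UMI gave 1.16 and 0.17 for the first 2 sums, and leaving out cells of the Col2a1 gate gave -0.25 and 0.092 for the other two. The other comparisons added after seeing the data are those of Prg4+Cilp with Col2a1 cells, of Ccr2 with other blood cells and of the Cxcr2 barcodes under the gene floor, and the last 2 without cells of a non-blood gate. The cause of these shifts was not tested.

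Of the 19 genes past 2-fold between non-blood and blood cells, 16 stayed so under all 10 alternatives, and Btg2, Klf2 and Gadd45b did not. The log2 ratio of 3 genes not past 2-fold changed sign. No paired analysis was possible because the matrices carry no replicate numbers. With 1 pooled sample, differences between mice or samples cannot be seen.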
